A study of Homo sapiens with 6 samples.

Results

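Cyclins and cyclin-dependent kinases (CDKs), the enzymes that drive the cell cycle, were followed in MDA-MB-453 cells after depletion of *DUSP6*. The members were chosen by gene symbol: 7 cyclins (*CCND1*, *CCND3*, *CCNE1*, *CCNE2*, *CCNA2*, *CCNB1* and *CCNB2*) and 3 kinases (*CDK4*, *CDK2* and *CDK1*), 10 genes of the 22807 in the expression table. MDA-MB-453 is an established HER2+ breast cancer cell line, and *DUSP6* encodes a phosphatase that removes the activating phosphates from ERK. RNA was sequenced in 6 libraries, 3 from cells transfected with scrambled siRNA and 3 from cells transfected with *DUSP6* siRNA, and both groups grew in RPMI medium with serum. The labels call the scrambled siRNA cells WT and the others DUSP6 KD, and name no other allele or drug. The knockdown used 3 different siRNAs and the controls 3 different scrambled siRNAs, and the siRNA used for a given library is not given in the sources used here. A general statement in the methods refers to independent experiments without naming these libraries, so p-values measure the spread between these libraries, which may hold differences between siRNAs and may be technical. All 10 members passed the filter, a mean normalized value of at least 1, as did 12862 genes in all.

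The targeted gene was lower in every *DUSP6* siRNA library. Replicates 1 to 3 had *DUSP6* values of 209, 110 and 114 in the scrambled siRNA group against 39.4, 24.5 and 35.2 after knockdown, and the log2 fold change was -2.05 (SE 0.25, adjusted p = 3.09e-04, limma). An exon of a gene on the opposite strand covers 24.1% of its transcript, so the value is uncertain to that extent. Depth ranged from 45546981 to 85729785 reads per library. The 8 markers of the cell line, among them *ERBB2*, the HER2 receptor gene, were all expressed, although *ERBB2* fell from 984 ± 94.3 to 495 ± 33.6 (SD, n = 3). Markers of basal cells, leukocytes and endothelium had mean values under 1 over the 6 libraries, whereas the fibroblast collagen gene *COL1A1* rose from 92.2 ± 12.2 to 173 ± 16.7 (SD, n = 3).

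Cyclins are the regulatory subunits that switch CDKs on, and each acts in its own part of the cycle. In G1, D-type cyclins with CDK4 begin to phosphorylate the retinoblastoma protein RB, and cyclin E with CDK2 completes that step and releases E2F transcription factors at the entry into S phase. Cyclin A partners CDK2 in S phase and CDK1 later, and cyclin B with CDK1 brings the cell into mitosis. ERK signaling is known to induce *CCND1*, while the genes for cyclin A, cyclin B and CDK1 are transcribed late in the cycle under the control of E2F, MuvB complexes and FOXM1. The members were therefore read in 3 classes, G1 (*CCND1*, *CCND3*, *CDK4*), G1/S (*CCNE1*, *CCNE2*, *CDK2*) and S and G2/M (*CCNA2*, *CCNB1*, *CCNB2*, *CDK1*).

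The promoters of the 4 S and G2/M members are shown because 2 kinds of box described in promoters of late genes were searched in them, with that of *CDK4* as a G1 member for comparison. Each sequence is the 250 bases before the transcription start of the RefSeq annotation on GRCh38.p14, written 5′ to 3′ on the strand of the gene. Capitals mark CCAAT, the box bound by NF-Y, and TTTGAA, a form of the cell cycle genes homology region bound by MuvB complexes; ATTGG is CCAAT read on the other strand. The windows are chr15:59104896-59105145 (plus strand) for *CCNB2*, chr10:60778228-60778477 (plus) for *CDK1*, chr5:69166900-69167149 (plus) for *CCNB1*, chr4:121823884-121824133 (minus) for *CCNA2* and chr12:57752311-57752560 (minus) for *CDK4*.
CCNB2: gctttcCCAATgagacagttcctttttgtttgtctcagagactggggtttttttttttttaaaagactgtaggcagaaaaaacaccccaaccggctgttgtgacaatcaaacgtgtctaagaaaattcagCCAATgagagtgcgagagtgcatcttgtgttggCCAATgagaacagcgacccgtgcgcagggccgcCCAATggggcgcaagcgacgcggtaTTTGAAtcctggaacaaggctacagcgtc
CDK1: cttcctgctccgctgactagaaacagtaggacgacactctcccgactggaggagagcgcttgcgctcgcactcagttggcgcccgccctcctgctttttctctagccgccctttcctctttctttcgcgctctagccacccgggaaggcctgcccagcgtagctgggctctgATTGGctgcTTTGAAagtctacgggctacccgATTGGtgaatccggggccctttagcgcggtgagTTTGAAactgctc
CCNB1: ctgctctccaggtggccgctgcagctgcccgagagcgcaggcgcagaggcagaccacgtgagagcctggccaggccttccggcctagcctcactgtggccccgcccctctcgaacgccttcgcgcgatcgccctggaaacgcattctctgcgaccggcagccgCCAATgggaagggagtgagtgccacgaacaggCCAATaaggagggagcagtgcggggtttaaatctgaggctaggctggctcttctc
CCNA2: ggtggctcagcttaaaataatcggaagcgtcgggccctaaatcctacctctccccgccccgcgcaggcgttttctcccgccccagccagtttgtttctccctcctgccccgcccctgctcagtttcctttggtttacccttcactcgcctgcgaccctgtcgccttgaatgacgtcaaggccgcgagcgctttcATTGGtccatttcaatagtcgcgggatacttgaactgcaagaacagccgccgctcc
CDK4: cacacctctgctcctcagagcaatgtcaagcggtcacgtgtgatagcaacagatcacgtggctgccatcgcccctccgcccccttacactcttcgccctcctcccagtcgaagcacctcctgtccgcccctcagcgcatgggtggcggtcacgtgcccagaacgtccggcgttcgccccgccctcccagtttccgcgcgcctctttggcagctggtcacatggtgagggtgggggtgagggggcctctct

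Motifs were searched on both strands in windows of 300 bases, the 250 before and 50 after the start, and 7 of the 10 members had such a window. *CCND1*, *CCNE2* and *CDK2* had none. CCAAT was found in 5 of the 7, *CCNA2*, *CCNB1*, *CCNB2*, *CDK1* and *CCND3*, and in 34.6% of all 35116 promoter windows. *CCNB2* held 4 copies, at positions -244, -120, -87 and -54 from the start, and *CCNB1* and *CDK1* held 2 copies each before the start. The letters TTTGAA or TTCGAA were found in 2 of the 7, *CCNB2* and *CDK1*, and in 16.4% of all windows. Other forms of the cell cycle genes homology region were not searched. Windows without these letters, those of *CCNB1* and *CCNA2* among them, may therefore still hold one. In *CCNB2* TTTGAA stood at position -29, downstream of its last CCAAT, and in *CDK1* it stood at -69 and -13 and, on the other strand, at 10 bases after the start. An E2F octamer (TTTCCCGC, TTTGGCGC, TTTCGCGC or TTTGCCGC, present in 3.31% of windows) was found in *CDK1* alone of the 7. The AP-1 motif TGANTCA, in 7.71% of windows, was in none of them, and the SP1 box GGGCGG, in 45% of windows, was in all 7. The E2F octamers share their first 3 bases, and some of them can overlap an SP1 box. A match describes letters in the window and not a bound site.

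Of the 10 members, 6 fell after *DUSP6* knockdown (limma, adjusted p under 0.05), none rose, and 4 were not called. At an unadjusted p under 0.05, 7 were lower and 0 higher, and edgeR's quasi-likelihood test called 6 lower and 0 higher. Across all genes tested, 24.7% were lower and 19.7% were higher by the same rule. In 8 members every *DUSP6* siRNA library was below every scrambled siRNA library, a pattern that 31.1% of all genes tested showed, while 26.7% showed the opposite one. The deposited values of a library sum to 1033110 to 1135124 with scrambled siRNA and to 920927 to 924989 with *DUSP6* siRNA. Scaling to total reads, which was not run, would raise the treated values relative to the controls. Small differences, such as those of *CCNB1* and *CCNE2*, therefore depend on the deposited scaling. The median log2 fold change of the members was -0.52, beside -0.01 for all genes tested. The 6 lower members came from every class: 2 of 3 in G1, 1 of 3 in G1/S and 3 of 4 in S and G2/M. Each class also held a member that was not called. In these bulk libraries, fewer cells in a phase and less RNA per cell cannot be told apart.

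**Figure D1:**
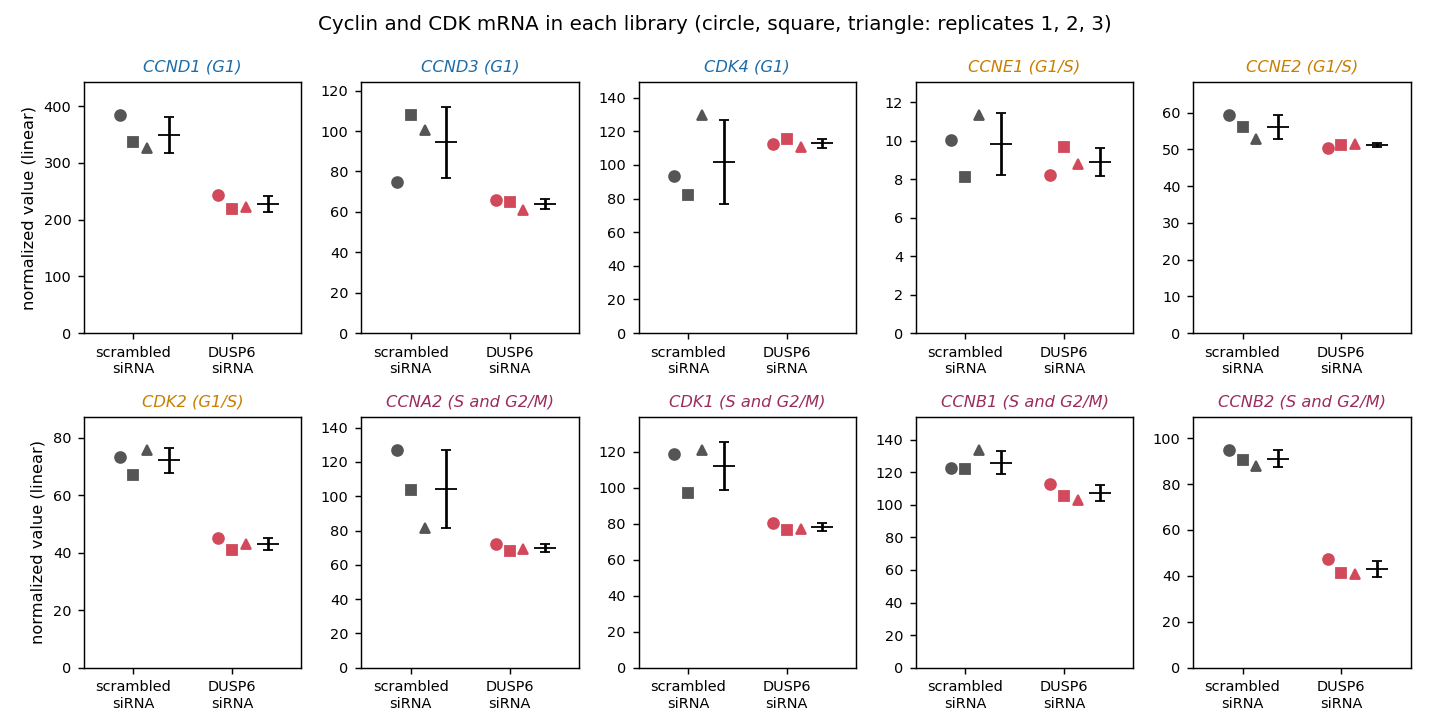
Normalized value (linear axis from 0) of each member in the scrambled siRNA libraries (gray) and the *DUSP6* siRNA libraries (red), with circles, squares and triangles for replicates 1, 2 and 3 and black bars for the mean ± SD of 3 libraries. The groups are apart in 8 panels and overlap for *CDK4* and *CCNE1*.

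*CCND1* (Entrez gene 595, chr11:69641156-69654474 of GRCh38), the D-type cyclin that responds to growth signals, was lower in every knockdown library. In the order of replicates 1 to 3, kept throughout, it stood at 385, 338 and 326 in the controls and at 244, 218 and 222 after knockdown. Its mean dropped by 34.7%, from 349 ± 31.0 to 228 ± 13.98 (SD, n = 3), and the highest *DUSP6* siRNA library stayed well under the lowest control. The log2 fold change was -0.61 (SE 0.10, 95% interval -0.83 to -0.39, adjusted p = 0.00121, limma). Under quantile normalization it was -0.37 and still called (adjusted p = 0.00892).

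*CCND3* (896, chr6:41934933-42050035), a D-type cyclin that also activates CDK4, fell by a like amount from a more variable control level. Its values were 74.6, 108 and 100.4 with scrambled siRNA and 66.1, 64.8 and 61.0 with *DUSP6* siRNA. Scrambled siRNA replicate 1 lay closest to the treated libraries, yet the groups did not overlap. The mean fell from 94.3 ± 17.5 to 63.9 ± 2.65 (SD, n = 3), with a log2 fold change of -0.54 (SE 0.13, 95% interval -0.84 to -0.23, adjusted p = 0.0112).

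*CDK4* (1019, chr12:57747727-57752310), the kinase partner of both D-type cyclins, was not called. Its values were 93.3, 82.0 and 129.6 with scrambled siRNA and 112, 115 and 110.5 with *DUSP6* siRNA. All *DUSP6* siRNA libraries fell inside the range of the controls, because scrambled siRNA replicate 3 was the highest of the 6 libraries. The mean went from 102 ± 24.9 to 113 ± 2.42 (SD, n = 3), with a log2 fold change of 0.17 with a 95% interval from -0.17 to 0.52 (adjusted p = 0.371). Without scrambled siRNA replicate 3 it was 0.36 and called higher (adjusted p = 0.00858). Exons of *TSPAN31*, a neighbor on the opposite strand, cover 57.8% of the *CDK4* transcript, and reads were counted with the default settings of Rsubread, which ignore strand, although the library kit keeps it, and leave out reads that overlap 2 genes. Both values are therefore uncertain. *TSPAN31* itself rose from 8.43 ± 2.01 to 14.5 ± 1.66 (SD, n = 3, adjusted p = 0.00700).

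The E-type cyclins, which activate CDK2 at the entry into S phase, were not called. *CCNE1* (898, chr19:29811991-29824312) was at 10.0, 8.12 and 11.3 with scrambled siRNA and 8.21, 9.65 and 8.76 with *DUSP6* siRNA. The groups overlapped, and the log2 fold change was -0.12 with a 95% interval from -0.43 to 0.18 (adjusted p = 0.477).

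*CCNE2* (9134, chr8:94880224-94896693) was at 59.3, 56.0 and 52.8 with scrambled siRNA and at 50.4, 51.2 and 51.5 with *DUSP6* siRNA. With the deposited scaling the groups did not overlap, but the highest treated library came close to the lowest control. The mean was 56.0 ± 3.27 against 51.0 ± 0.54 (SD, n = 3), with a log2 fold change of -0.13 with a 95% interval from -0.33 to 0.07 (adjusted p = 0.250). Exons of *INTS8* on the opposite strand cover 56.9% of its transcript, and *INTS8* fell by 0.29 on the log2 scale (adjusted p = 0.0268), so the value of *CCNE2* is uncertain.

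*CDK2* (1017, chr12:55966830-55972789), the kinase of cyclins E and A, changed more than either cyclin E. Its values were 73.4, 67.2 and 75.8 with scrambled siRNA and 45.1, 40.9 and 43.1 with *DUSP6* siRNA. The libraries were tight in both groups and far apart between them. The mean fell by 40.4%, from 72.1 ± 4.44 to 43.0 ± 2.13 (SD, n = 3), with a log2 fold change of -0.73 (SE 0.09, 95% interval -0.94 to -0.53, adjusted p = 3.43e-04).

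*CCNA2* (890, chr4:121816444-121823883), the cyclin A of dividing somatic cells, varied most among the controls of its class. It was at 127, 103 and 81.7 with scrambled siRNA and at 72.3, 68.1 and 69.3 with *DUSP6* siRNA. The groups did not overlap, and scrambled siRNA replicate 3 lay nearest to the treated libraries. The mean fell from 104 ± 22.7 to 69.9 ± 2.16 (SD, n = 3), with a log2 fold change of -0.54 (SE 0.14, 95% interval -0.87 to -0.22, adjusted p = 0.0145). Without *DUSP6* siRNA replicate 2 the call was lost (log2 fold change -0.53, adjusted p = 0.0613).

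*CDK1* (983, chr10:60778331-60794852, a span that begins upstream of the MANE Select start used for the promoter window above), the mitotic kinase, was at 119, 97.0 and 121 with scrambled siRNA and at 80.8, 76.5 and 77.03 with *DUSP6* siRNA. Scrambled siRNA replicate 2 was the lowest control and still above all treated libraries. The mean fell by 30.5%, from 112 ± 13.3 to 78.1 ± 2.33 (SD, n = 3), with a log2 fold change of -0.51 (SE 0.10, 95% interval -0.75 to -0.28, adjusted p = 0.00422).

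The B-type cyclins, both partners of CDK1 in mitosis, differed in how far they moved. *CCNB2* (9133, chr15:59105146-59125045) was at 94.9, 90.6 and 87.7 with scrambled siRNA and at 47.2, 41.1 and 40.6 with *DUSP6* siRNA. Its mean fell by 52.8%, from 91.1 ± 3.63 to 43.0 ± 3.62 (SD, n = 3), the largest change among the members, with a log2 fold change of -1.07 (SE 0.09, 95% interval -1.28 to -0.86, adjusted p = 5.17e-05). It stood at rank 287 of 12862 genes by p. *CCNB1* (891, chr5:69167150-69178245) was at 122, 122 and 134 with scrambled siRNA and at 112.5, 105 and 103 with *DUSP6* siRNA. The groups did not overlap, but the mean went only from 126 ± 6.78 to 107 ± 4.87 (SD, n = 3), with a log2 fold change of -0.23 (SE 0.09, 95% interval -0.43 to -0.04) that missed the threshold (adjusted p = 0.0534). After rescaling by the median of ratios *CCNB1* was called lower (adjusted p = 0.0464), and under quantile normalization its fold change was -0.11 (adjusted p = 0.345).

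**Figure D2:**
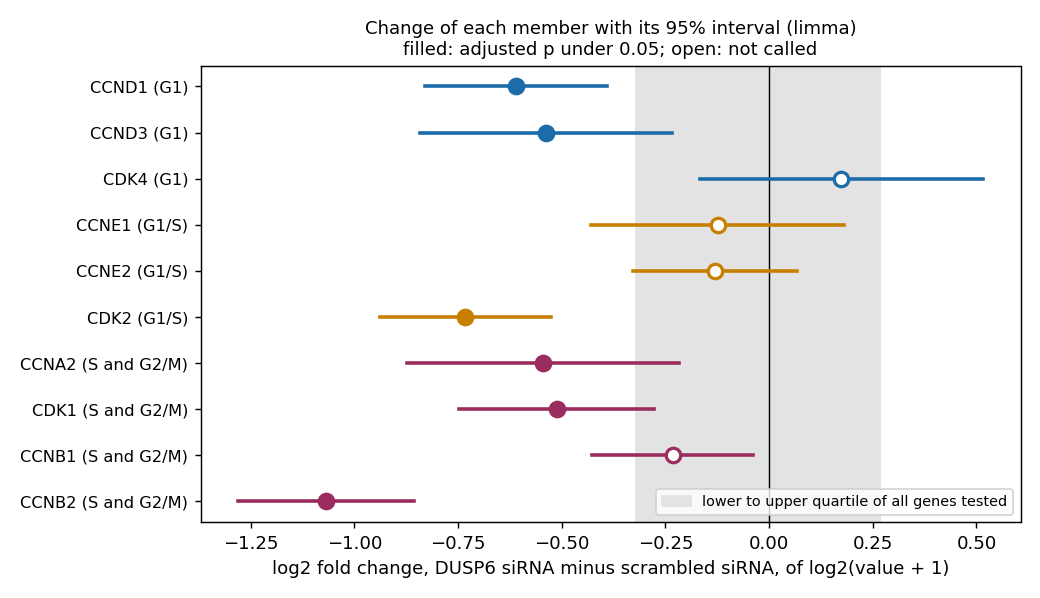
Log2 fold change of each member, *DUSP6* siRNA minus scrambled siRNA, with its 95% interval from limma, colored by class; filled circles passed an adjusted p under 0.05. The gray band spans the lower to the upper quartile of all 12862 genes tested, from -0.32 to 0.27, and all 6 called members lie to its left.

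Exons of other genes cover 9.24% of the *CCNA2* transcript, 11.7% of that of *CCND1* and 16.8% of that of *CDK2*, all mainly from the opposite strand, so these values are also uncertain to that extent. No exon of another gene lay over *CCND3*, *CCNE1*, *CCNB1*, *CCNB2* or *CDK1*. The neighbors with symbols, *EXOSC9* beside *CCNA2* and *LTO1* beside *CCND1*, were not called, with log2 fold changes of -0.24 (adjusted p = 0.0559) and 0.12 (adjusted p = 0.366).

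Replicates differed less after *DUSP6* siRNA. The coefficient of variation was lower in the *DUSP6* siRNA group for 9 of the 10 members, with *CCNB2* as the exception (3.99% with scrambled siRNA and 8.43% with *DUSP6* siRNA). It was 24.5% against 2.15% for *CDK4* and 21.8% against 3.09% for *CCNA2*. The same direction was seen over all genes tested, whose median was 12.7% with scrambled siRNA and 6.04% with *DUSP6* siRNA. The share of all genes tested with a lower coefficient of variation after *DUSP6* siRNA was not counted.

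The contrast of G1 with S and G2/M members was then taken within each library, as the difference between the class means of log2(value + 1). It came to 0.27, 0.49 and 0.64 in the controls and to 0.70, 0.76 and 0.73 after knockdown. All *DUSP6* siRNA libraries were above all controls, and the group means differed by 0.27. The G1 mean fell by 0.32 and the S and G2/M mean by 0.59. The value of the contrast was 0.17 without scrambled siRNA replicate 1.

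Without the kinases the contrast was small. With cyclins alone, a choice made after the values were seen, it was 0.57, 0.86 and 0.87 with scrambled siRNA and 0.80, 0.83 and 0.80 with *DUSP6* siRNA. These ranges overlapped, and the means differed by 0.04, less than the SD of 0.17 among the controls. The difference *CDK4* minus *CDK1*, on the same scale, went from -0.34, -0.24 and 0.10 to 0.47, 0.59 and 0.51. Because *CDK4* shares much of its transcript with *TSPAN31*, this contrast is uncertain with it. The median log2 fold change was -0.54 among the 3 G1 members, -0.13 among the 3 G1/S members and -0.53 among the 4 S and G2/M members.

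Ratios between members within a library do not depend on the scaling between libraries, apart from quantile normalization. The ratio of *CCNB1* to *CCND1*, a mitotic to a G1 cyclin, was -1.65, -1.46 and -1.28 on the log2 scale with scrambled siRNA and -1.11, -1.04 and -1.10 with *DUSP6* siRNA. It was higher in each treated library, by 0.38 on average, the difference being larger for *CCND1* than for *CCNB1* (exact permutation test, two-sided, p = 0.1, the smallest that 3 libraries against 3 allow, 0.15 after Benjamini-Hochberg adjustment over 12 ratios). The other 11 ratios were chosen after the values were seen. Of all 12, 8 did not overlap between the groups, 5 higher and 3 lower, each at the same p of 0.1. Without overlap, 31.1% of all genes tested were lower and 26.7% higher, and the share over other gene pairs was not counted.

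Several cyclins shifted relative to their kinases, each at an adjusted p of 0.15 (exact permutation test), which is not under 0.05. Such a ratio restates the changes of the cyclin and of the kinase given above. Exons of neighbors cover much of the *CDK4* and *CCNE2* transcripts, so ratios with either gene are uncertain. Relative to *CDK4*, *CCND1* fell by 0.79 and *CCND3* by 0.71 on the log2 scale, with no overlap. Relative to *CDK2*, *CCNE1* was higher by 0.61 and *CCNE2* by 0.60, again with no overlap. *CCNA2* showed no such shift: its ratio to *CDK2* differed by 0.19 (p = 0.6, exact permutation test) and that to *CDK1* by -0.03 (p = 1, exact permutation test), and both overlapped between the groups. Relative to *CDK1*, *CCNB1* was higher by 0.28 and *CCNB2* lower by 0.56. The ratio of *CCNB1* to *CCNB2* went from 0.36, 0.42 and 0.60 to 1.24, 1.34 and 1.32, the largest shift of the 12 at 0.84. Within the D-type and the E-type pairs the ratio overlapped between the groups, with differences of -0.07 for *CCND1* to *CCND3* and 0.01 for *CCNE1* to *CCNE2*.

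**Figure D3:**
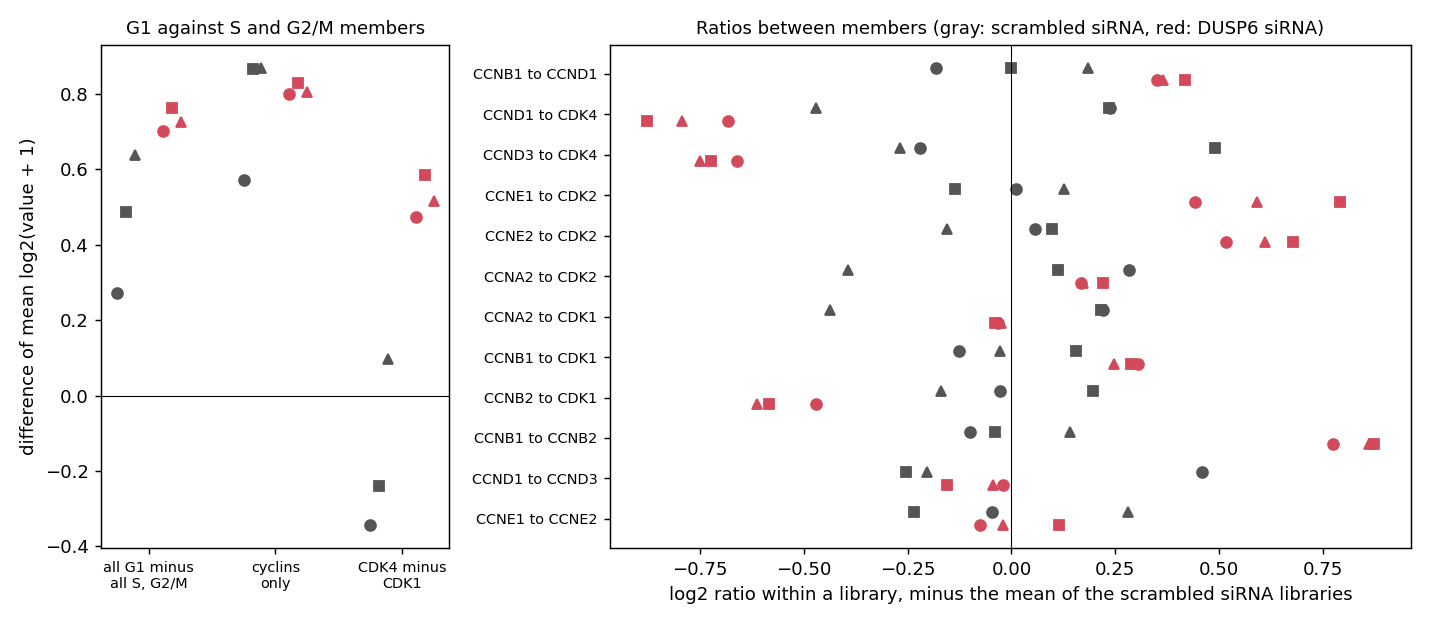
Left, the difference of mean log2(value + 1) between G1 and S and G2/M members in each library, for all members, cyclins only and *CDK4* minus *CDK1*; right, 12 log2 ratios between members, each minus the mean of the scrambled siRNA libraries. Gray is scrambled siRNA, red is *DUSP6* siRNA, and symbols are replicates as in the plot of member values; the cyclins-only values overlap, and the ratio of *CCNB1* to *CCNB2* shifts by 0.84.

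Levels were compared between genes as the normalized value per kilobase of the MANE Select transcript. With scrambled siRNA *CCND1* stood highest at 82.4 ± 7.32 (SD, n = 3), clear of the next gene. *CCNB1* (62.1), *CCNB2* (61.2), *CDK1* (59.5), *CDK4* (54.5), *CCND3* (46.6), *CCNA2* (37.9) and *CDK2* (32.2) followed, each overlapping its neighbor in the order. *CCNE2* at 21.0 and *CCNE1* at 5.03 lay below these, each apart from the gene above it. With *DUSP6* siRNA *CDK4* was first, at 60.5 ± 1.30 (SD, n = 3), and apart from *CCND1* at 53.9 ± 3.30, which overlapped *CCNB1* at 52.8. *CCNB2* moved from place 3 to place 6, at 28.9, below *CDK1* (41.3) and *CCND3* (31.6), the latter overlapping it. *CCNA2* (25.4) followed, and *CDK2* (19.2) now overlapped *CCNE2* (19.1). Since cells can use other transcripts than the MANE one, the order depends on that length. Reads that overlap 2 genes were left out, yet the full length was used. Exons of other genes cover 57.8% of the *CDK4* transcript and 56.9% of that of *CCNE2*. Their levels may therefore be understated, and their places in both orders are uncertain. So is the first place of *CCND1* with scrambled siRNA.

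**Figure D4:**
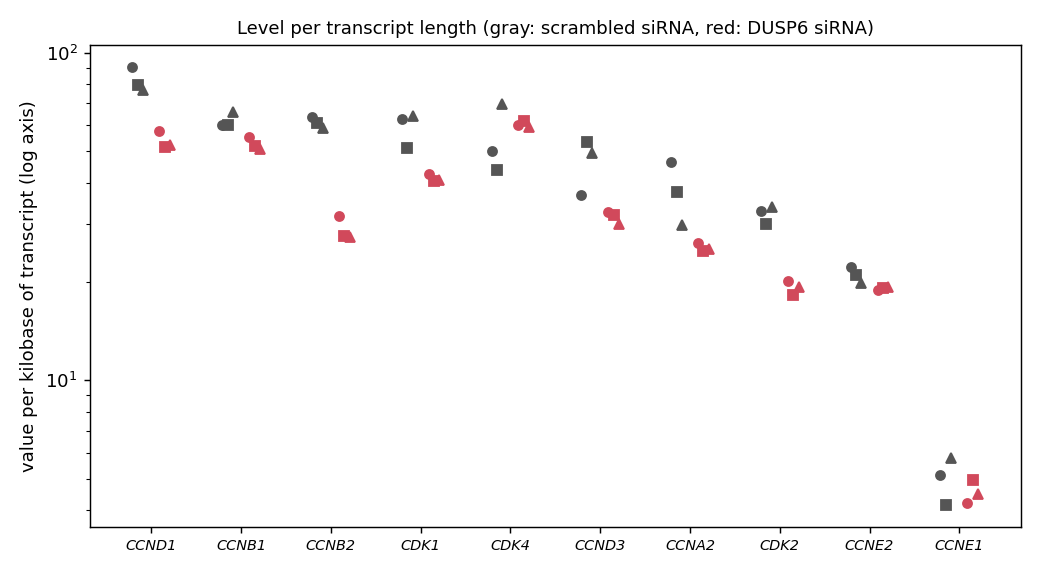
Normalized value per kilobase of MANE Select transcript (log axis) of the 10 members in each library, gray for scrambled siRNA and red for *DUSP6* siRNA, with symbols for replicates 1, 2 and 3. Genes are ordered by the scrambled siRNA mean. *CCND1* is first in gray, *CDK4* first in red, and *CCNE1* last in both, and the places of *CDK4* and *CCNE2* are uncertain.

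Other cyclins and CDKs moved both ways. Of 24 further family members, 21 were in the table and 17 passed the filter, of which 6 were lower and 3 higher, beside 24.7% and 19.7% over all genes tested, with a median log2 fold change of -0.05. The lower count was 3 under quantile normalization, without scrambled siRNA replicate 1 and without any one of the *DUSP6* siRNA libraries, and the higher count was 5 with no filter and 1 with a mean value of at least 10. *CDK18* fell from 21.1 ± 1.72 to 7.79 ± 0.65 (SD, n = 3), with a log2 fold change of -1.33 (adjusted p = 4.34e-05). *CCNO* (-0.74, adjusted p = 5.51e-04) and *CCNF* (-0.70, adjusted p = 9.72e-04), the substrate-binding subunit of a ubiquitin ligase that acts in G2, were also lower; other exons cover 9.22% of the *CCNF* transcript, which makes its value uncertain. *CDK20* (1.31, adjusted p = 3.18e-04) and *CDK14* (0.72, adjusted p = 0.00107) were higher from low levels, with means of 3.53 and 1.28 with scrambled siRNA. The D-type cyclin *CCND2* was under the filter, at 0 in all scrambled siRNA libraries and at 0.34, 0.32 and 0.36 with *DUSP6* siRNA.

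Of 16 cyclins and CDKs that act in transcription rather than in the cycle, 3 were lower and 6 higher. Their median was -0.05, and 24.7% and 19.7% of all genes tested were lower and higher. The lower count was 1 under quantile normalization and in the fits that left out 1 library, except that without scrambled siRNA replicate 3 (4). *CCNC*, the cyclin of the Mediator kinase module, rose from 62.5 ± 7.02 to 106 ± 7.13 (SD, n = 3, log2 fold change 0.76, adjusted p = 6.44e-04), although exons of other genes cover 15.8% of its transcript and make the value uncertain. Its kinases *CDK19* (-0.96, adjusted p = 0.00928) and *CDK8* (-0.39, adjusted p = 0.0289) fell. The call of *CDK8* was lost under quantile normalization and in 5 of the 6 fits that left out 1 library, all but that without scrambled siRNA replicate 3 (adjusted p up to 0.104). *CDK9*, the kinase of elongation factor P-TEFb, rose by 0.60 (adjusted p = 0.00338) and *CCNL2*, linked to splicing, by 0.67 (adjusted p = 0.00271).

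Among CDK inhibitors, 2 of 7 tested were lower and 1 was higher, near the 24.7% and 19.7% over all genes tested, with a median of -0.25. The lower count was 4 without scrambled siRNA replicate 3 and 1 without *DUSP6* siRNA replicate 2 or 3, and the higher count was 2 under quantile normalization and without scrambled siRNA replicate 2. *CDKN1A*, which encodes the inhibitor p21, rose from 40.8, 56.7 and 58.9 in the controls to 92.6, 81.8 and 104 after knockdown, by 0.83 on the log2 scale (adjusted p = 0.00229). *CDKN1B*, which encodes p27, was at 121 ± 13.5 and 139 ± 4.81 (SD, n = 3) and was not called (0.20, adjusted p = 0.137). *CDKN2D*, an inhibitor of CDK4 and CDK6, and *CDKN3*, a phosphatase that acts on CDKs, were lower at -0.51 (adjusted p = 0.00992) and -0.59 (adjusted p = 0.0153). The call of *CDKN2D* was lost without *DUSP6* siRNA replicate 3 (adjusted p = 0.0556) and that of *CDKN3* without *DUSP6* siRNA replicate 2 (adjusted p = 0.0638).

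Of 14 genes for CDK activators, adaptors and cyclin degradation, 6 were lower and 2 higher, beside 24.7% and 19.7% over all genes tested. The median was -0.18. *CDC25B*, a phosphatase that activates CDKs, fell from 121 ± 2.65 to 64.2 ± 5.30 (SD, n = 3, log2 fold change -0.91, adjusted p = 1.05e-04). *CDC37*, the chaperone partner that loads kinases such as CDK4 onto HSP90, fell by 0.79 (adjusted p = 2.33e-04); a microRNA gene covers 5.01% of its transcript, so this value is uncertain. *PKMYT1*, which inhibits CDK1, fell by 0.93 (adjusted p = 0.00131), although exons of other genes cover 16.3% of its transcript. *AMBRA1*, a substrate receptor for degradation of D-type cyclins, rose by 0.27 (adjusted p = 0.0375) and *FZR1*, an activator of the anaphase-promoting complex, by 0.28 (adjusted p = 0.0403). These 2 calls were not stable: both were lost without any one of the *DUSP6* siRNA libraries, that of *AMBRA1* also without scrambled siRNA replicate 2 (adjusted p up to 0.139) and that of *FZR1* also without scrambled siRNA replicate 1 and without a trend (adjusted p up to 0.145).

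The regulators upstream of the late cyclins were lower in part. Of 22 RB, E2F, MuvB and FOXM1 genes, 11 were lower and 2 higher, beside 24.7% and 19.7% over all genes tested. The median was -0.31. The lower count was 7 without *DUSP6* siRNA replicate 1, and the higher count was 1 with no filter and without scrambled siRNA replicate 2, *DUSP6* siRNA replicate 2 or *DUSP6* siRNA replicate 3. *FOXM1*, which drives G2/M transcription, fell from 226, 217 and 193 with scrambled siRNA to 104, 91.4 and 94.0 with *DUSP6* siRNA (log2 fold change -1.13, adjusted p = 4.68e-05), and *E2F1* fell from 120.3 ± 13.8 to 47.6 ± 6.20 (SD, n = 3, -1.32, adjusted p = 7.25e-05). *MYBL2*, which joins MuvB in S phase, fell by 1.21 (adjusted p = 3.66e-04). *RB1* was at 133 ± 15.5 and 164 ± 18.5 (SD, n = 3) and was not called (0.30, adjusted p = 0.0625). *E2F5* (0.61, adjusted p = 0.0273) and *LIN37* (0.58, adjusted p = 0.00469) were higher. The call of *E2F5* was lost with no filter and without scrambled siRNA replicate 1 or 2 or *DUSP6* siRNA replicate 2 or 3 (adjusted p up to 0.112). Other genes' exons cover 22% of the transcript of *FOXM1*, 30.8% of that of *E2F5* and 80.4% of that of *LIN37*, which makes the value of the last in particular uncertain.

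Genes of DNA replication and of mitosis were mostly lower. Of 42 S phase genes, 38 were lower and none was higher, beside 24.7% and 19.7% over all genes tested. Their median log2 fold change was -0.75. The helicase gene *BLM* (-1.32, adjusted p = 1.04e-04) and *UHRF1*, which maintains DNA methylation (-1.24, adjusted p = 1.24e-04), were among them, with 8.45% of the *BLM* transcript under another exon and its value thus uncertain. Of 52 G2/M genes, 36 were lower and none was higher, with a median of -0.48, close to the -0.53 of the S and G2/M members. *CBX5* (-0.67, adjusted p = 2.72e-04), the motor gene *CENPE* (-0.84, adjusted p = 4.21e-04) and *CDCA8* (-0.78, adjusted p = 5.71e-04), which encodes a subunit of the chromosomal passenger complex, were among them. In both lists 0 genes were higher at an unadjusted p under 0.05 or by edgeR, but 1 G2/M gene, *RANGAP1*, was called higher under quantile normalization (adjusted p = 0.0493) and without scrambled siRNA replicate 3 (adjusted p = 0.0478).

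The 8 genes commonly read as ERK output did not move one way, with 3 lower, 3 higher and 2 not called. Their median was -0.11, and 24.7% and 19.7% of all genes tested were lower and higher. *SPRY4* (-1.25, adjusted p = 4.68e-05), *DUSP4* (-1.17, adjusted p = 3.70e-04) and *ETV4* (-1.18, adjusted p = 0.0369) were lower, the last from control values of 11.6, 2.45 and 3.64. The call of *ETV4* was lost with no filter and without any one of the *DUSP6* siRNA libraries (adjusted p up to 0.129). *EPHA4* (1.01, adjusted p = 1.11e-04) and *SPRY2* (0.98, adjusted p = 2.52e-04) were higher. With a mean value of at least 10 the higher count was 1.

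**Figure D5:**
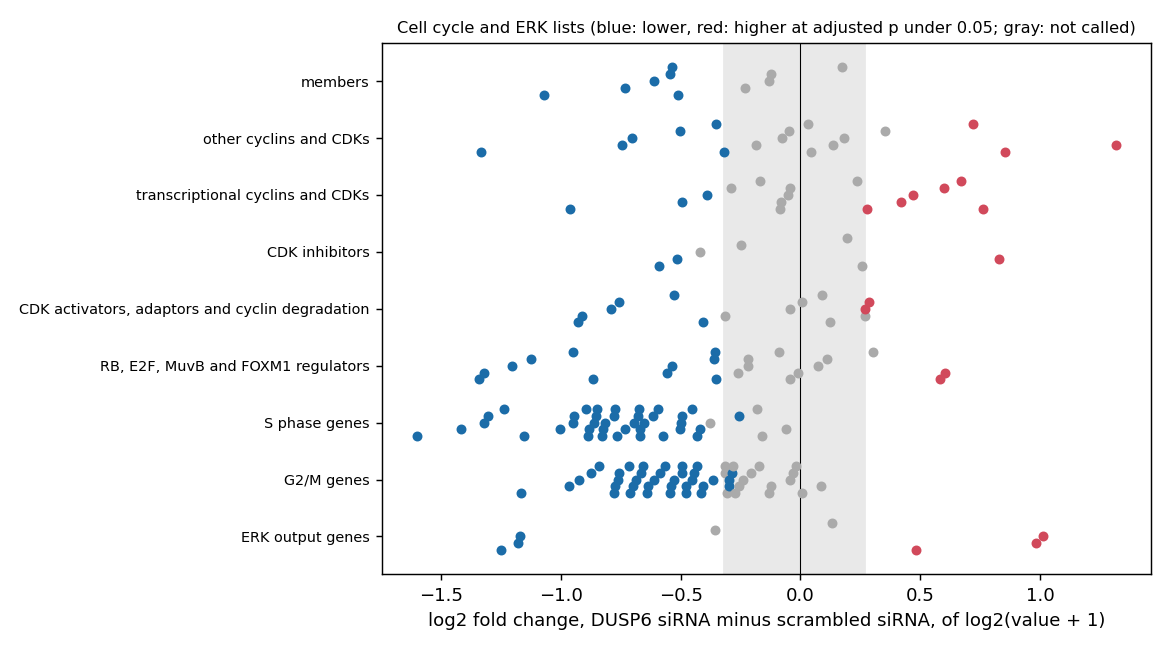
Log2 fold change of each tested gene (points, spread vertically only for sight) in the members and in 8 lists of cell cycle and ERK genes, with blue for lower and red for higher at an adjusted p under 0.05 and gray for not called; the gray band spans the lower to the upper quartile of all genes tested. S phase and G2/M genes hold no red point, while the other lists besides the members hold both colors.

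Genes of the interferon response moved with the same groups. All 10 listed were higher with *DUSP6* siRNA, with a median log2 fold change of 6.16, and their summed value went from between 143 and 186 in the scrambled siRNA libraries to between 4300 and 4918 in the *DUSP6* siRNA libraries. *OASL* rose from 2.38 ± 0.99 to 273 ± 31.6 (SD, n = 3) and *IFIT3* from 1.64 ± 0.36 to 185 ± 45.0 (SD, n = 3). The part of this response in the cyclin values was not tested. Of the cell line markers, 5 of 8 were lower and 1 was higher, beside 24.7% and 19.7% over all genes tested. Their median was -0.47. The higher call was lost with no filter, without scrambled siRNA replicate 2 and without any one of the *DUSP6* siRNA libraries (adjusted p up to 0.102). *KRT19* (-1.81), *ERBB2* (-0.99) and the luminal transcription factor gene *FOXA1* (-0.79) fell. The summed value of the 5 markers of other cell types went from between 81.9 and 106 to between 163 and 193, nearly all of it *COL1A1*, and none of the 5 was at 0 in every library. Their part in the cyclin values was not tested.

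The genes whose log2(value + 1) was most like that of *CCND1* over the 6 libraries were *NEIL3*, *PER3*, *ACTN1*, *ANP32C* and *C18orf54*, with Pearson r from 0.998 to 0.999. Those most like the mean of the 4 S and G2/M members were *UBE2C*, *FASN*, *FANCB*, *TUBA1A* and *VASH2*, also at 0.998. These are descriptions over 6 points that fall into 2 groups, and 1322 and 1315 genes reached an r over 0.95, so many other genes shared the difference between the groups.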

How the data were processed

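RNA-seq of 6 MDA-MB-453 libraries was analyzed. The authors aligned reads to hg38 and assigned them to RefSeq gene models with Rsubread at default settings, and deposited 1 normalized signal value per gene and library. All values were whole multiples (within 0.01 of a read) of a step for each library, so that whole reads could be recovered, and the steps matched edgeR's TMM scaling. One read is worth 0.0121 to 0.0202. Counting error and other spread between libraries were not separated. Labels gave the groups. limma 3.58.1 (lmFit, eBayes with a trend, R 4.3.3) was run on log2(value + 1) for genes whose mean reached 1, with Benjamini-Hochberg adjustment over 12862 genes and calls at an adjusted p under 0.05. Adding 1 understates the fold changes of low genes. Ratios were compared by exact permutation.

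The members, classes and lists were chosen with earlier results of these data known. From each list, up to 3 called genes with the smallest adjusted p in its main direction and up to 2 in the other were named, plus *RB1*, *E2F1*, *FOXM1*, *CDKN1A* and *CDKN1B*. Some genes that this rule picks are not reported here. *CCND2*, *TSPAN31*, *INTS8*, *LTO1*, *EXOSC9* and *RANGAP1* were added after their values were seen. Gene positions and promoters came from RefSeq on GRCh38, and transcript lengths and exon overlaps from GENCODE; over 5% overlap was called uncertain. The limma and edgeR steps were run on simulated data with the same spread in both groups. The real libraries spread less after *DUSP6* siRNA, so that run checks the code only. Alternatives were another pseudocount, filters, scalings, a replicate block, no trend, the quasi-likelihood test of edgeR 4.0.16 on whole reads, and leaving out each library.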

Additional observations from a re-analysis of the deposited data

How the results depend on the processing

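No result reversed. The count of lower members was 6 under every alternative except rescaling by the median of ratios (7, with *CCNB1*) and leaving out 1 library (5 to 6, lowest without *DUSP6* siRNA replicate 2, which lost *CCNA2*). The count of higher members ranged from 0 to 1 when 1 library was left out, the 1 being *CDK4* without scrambled siRNA replicate 3. Over all genes, higher calls went from 2540 to 1639 with a mean value of at least 10, and ranged from 1535 to 3213 with 1 library left out, lowest without *DUSP6* siRNA replicate 2 (1686 without *DUSP6* siRNA replicate 3). The cause was not tested. The contrast of G1 with S and G2/M members was 0.0413 with cyclins only, 0.31 under quantile normalization, and from 0.17 to 0.35 with 1 library left out. The *CCNB1* to *CCND1* ratio shifted by 0.26 under quantile normalization and by 0.29 to 0.47 with 1 library left out. The median of all genes stayed between -0.05 and 0.02. Replicate numbers did not pair the libraries: deviations of same-numbered libraries correlated at 0.005, 0.087 and -0.076. With the replicate block, 6 members were lower, 2495 genes higher and 3096 lower, and the *CCNB1* to *CCND1* shift was 0.38. Neither *AMBRA1* nor *FZR1* was called with the block. edgeR's quasi-likelihood test on recovered reads called 2459 genes higher and 3245 lower. Among list counts, 33 of the alternative values moved by over 1.5 times and 219 did not.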
